A study of Mus musculus with 20 samples.

Results

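Messenger RNA of 10 genes of the bone morphogenetic protein (BMP) pathway was followed in jejunal epithelial cells of mice: the ligand gene Bmp2, the receptor genes Bmpr1a and Bmpr2, the signal transducers Smad1 and Smad5, the inhibitory Smad6 and Smad7, and the target genes Id1, Id2 and Id3. The genes were picked by symbol, and all 10 were found among 17294 gene rows of the acute table and 16195 of the prolonged table. The tissue came from female mice in which the histone H3 lysine demethylase genes Kdm6a and Kdm6b had both been ablated (DKO), and from mice labelled control or wild type. There were 7 DKO and 5 control libraries from 7 days after ablation (acute), and 5 DKO and 3 control libraries from 5 months after it (prolonged). The libraries are labelled biological replicates, the acute ones each carry an animal number, and the design text calls the cells crypt epithelium. The driver and the inducer of the ablation, the mouse strain and the age are not given in the sources used here, nor is it stated whether controls received the inducer.

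BMP ligands bind paired type I and type II receptors on the cell surface, and the type I receptor then phosphorylates SMAD1 and SMAD5, which enter the nucleus with SMAD4. In the intestine BMP activity is low at the crypt base, where antagonists from the surrounding mesenchyme hold it down, and high in the villus, where it favours differentiation over division. The Id genes, which encode helix-loop-helix proteins that sequester E proteins and so keep them off DNA, are classic immediate targets, and SMAD6 and SMAD7 feed back on the pathway.

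Promoter sequence was available from RefSeq for 7 of the 10 genes, in 9 windows on GRCm38.p6 of 300 bases, of which 250 lie before the annotated start and which overlap in part for Smad5. The windows were searched on both strands for GGCGCC and GGAGCC, GC-rich words that BMP-activated SMADs are known to bind, and for CAGAC, the core of the SMAD box. GGCGCC was present in 5 of the 9 windows (55.6%), against 11.9% of all 32851 windows, GGAGCC in 4 (44.4%, against 30.8%) and CAGAC in 2 (22.2%, against 49.6%). Of the 5 windows with GGCGCC, 2 are overlapping Smad5 windows that share the same match. The member windows held between 59.3 and 79.3% G and C, against a median of 52.7% over all windows. They held between 19 and 48 CG pairs, against a median of 7 over all windows. These differences in composition were not taken out of the motif shares. The 250 bases before the start are shown for the receptor gene with the clearest change and for target or feedback genes of the pathway, with every match to a searched word in capitals. Their places on GRCm38.p6 are chr1:59764029-59764278, plus strand, for Bmpr2, chr12:25096093-25096342, minus strand, for Id2, chr4:136143572-136143821, plus strand, for Id3, and chr9:64022060-64022309, minus strand, for Smad6.
Bmpr2: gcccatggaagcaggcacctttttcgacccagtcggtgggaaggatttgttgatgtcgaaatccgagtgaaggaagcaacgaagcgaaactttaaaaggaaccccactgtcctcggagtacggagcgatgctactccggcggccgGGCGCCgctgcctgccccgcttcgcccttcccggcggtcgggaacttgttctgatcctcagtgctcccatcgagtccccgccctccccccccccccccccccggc
Id2: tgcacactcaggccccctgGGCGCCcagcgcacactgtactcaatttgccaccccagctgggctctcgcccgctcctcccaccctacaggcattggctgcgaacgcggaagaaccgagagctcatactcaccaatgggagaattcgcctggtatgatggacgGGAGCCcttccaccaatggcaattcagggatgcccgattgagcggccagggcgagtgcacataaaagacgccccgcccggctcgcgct
Id3: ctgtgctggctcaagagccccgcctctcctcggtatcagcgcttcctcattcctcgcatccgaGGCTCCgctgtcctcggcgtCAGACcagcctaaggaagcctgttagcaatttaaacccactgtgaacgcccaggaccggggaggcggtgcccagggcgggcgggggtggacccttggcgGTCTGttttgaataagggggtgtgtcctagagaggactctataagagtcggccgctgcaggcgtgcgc
Smad6: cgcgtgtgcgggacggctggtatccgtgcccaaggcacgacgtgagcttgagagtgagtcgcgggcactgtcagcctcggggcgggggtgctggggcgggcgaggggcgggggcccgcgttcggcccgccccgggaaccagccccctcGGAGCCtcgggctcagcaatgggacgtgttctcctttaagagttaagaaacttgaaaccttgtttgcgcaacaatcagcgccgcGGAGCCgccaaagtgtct
A match describes these letters and shows no binding.

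Values are CPM, that is, reads of a gene scaled to the library's total in genes. Each log2 fold change sets DKO over control after 1 is added to the CPM, and is given ± its standard error in the limma fit. Each library had between 9914738 and 26586045 reads in genes. Kdm6a and Kdm6b, the genes ablated, had no DKO value as high as any control of the same time, and acute Kdm6a lay between 38.5 and 45.7 CPM in DKO and between 57.7 and 72.6 CPM in control libraries. The epithelial markers Epcam, Cdh1, Krt8, Krt18, Krt19 and Cldn7 together came to between 7507 and 8503 CPM in acute DKO and between 7736 and 8121 CPM in acute control libraries. Acute DKO libraries 3 and 4 stood apart, with first principal component values of 34.0 and 45.9 against -28.0 to 12.1 in the other 10. They also come from a range of animal numbers that holds no control, whereas 4 of the 5 acute controls share the lowest range with DKO 5 and 6, so for these 2 libraries genotype and number range cannot be told apart. Fibroblast markers summed to 701 CPM in acute DKO 3 and 246 CPM in DKO 4, to between 32.9 and 237 CPM in the other acute DKO libraries and to between 43.7 and 205 CPM in the acute controls, and 0 of these 7 markers were at 0 throughout. In such bulk samples, fewer cells of a type and less RNA per cell cannot be told apart.

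**Figure D1:**
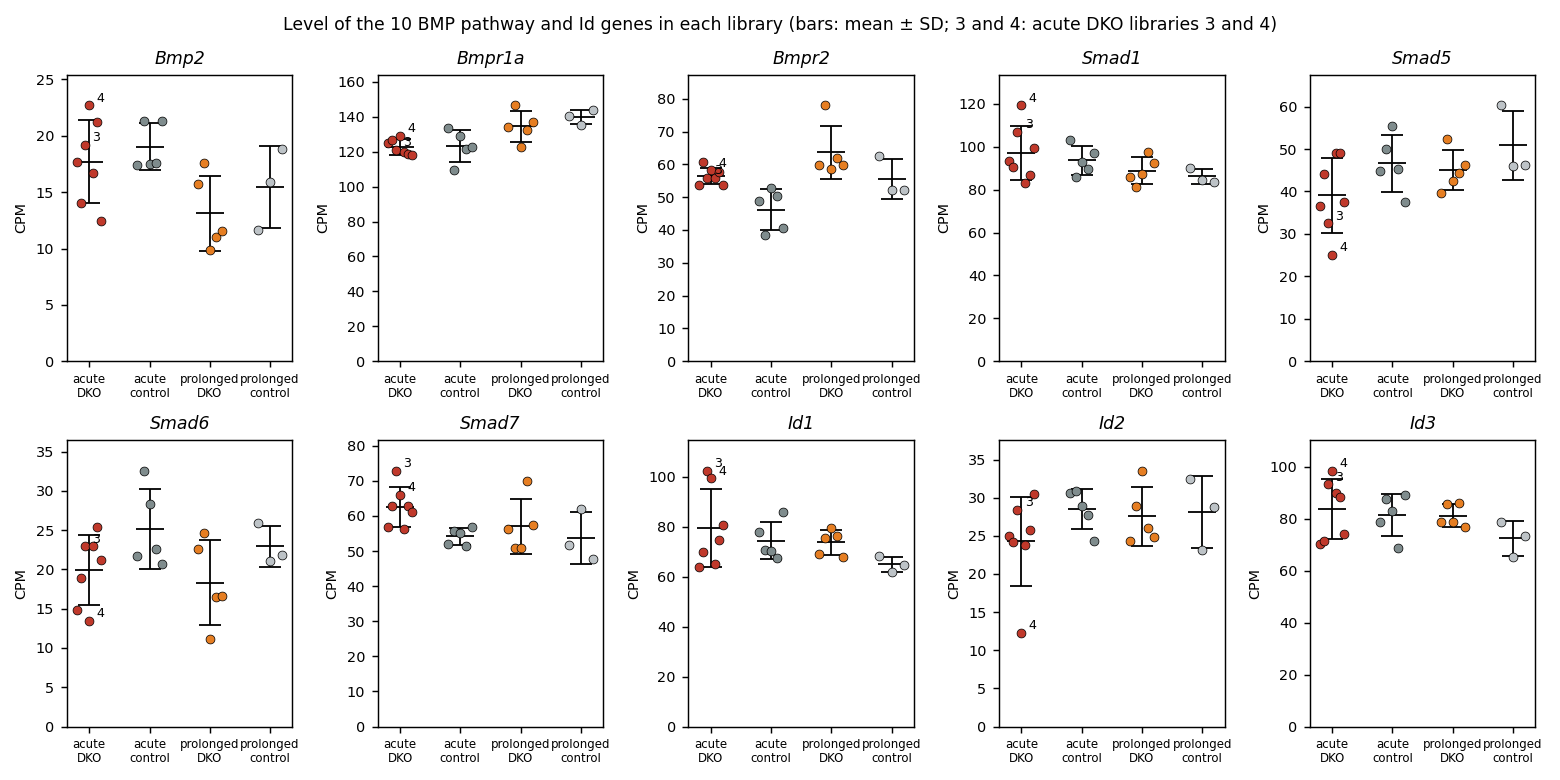
CPM of each gene (vertical axis, from 0) in each library of the 4 groups, with mean ± SD as bars; acute DKO libraries 3 and 4 are numbered. Acute Bmpr2 is the panel in which the DKO points, 53.7 to 60.8 CPM, all lie above the control points, 38.3 to 52.9 CPM.

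Of the 10 genes, Bmpr2 alone passed the test at the acute time and it was higher in DKO, and 0 passed at the prolonged time. A test here is limma's moderated test with Benjamini-Hochberg adjustment over all genes of the table, passed at an adjusted p under 0.05. Over all genes, 15.0% of 13601 acute genes passed (2.90% higher, 12.1% lower) and 14.7% of 13316 prolonged genes did (5.74% higher, 8.94% lower). The acute count of 1 in 10 stands against 15.0% in either direction and 2.90% in the higher direction, and it is a single gene. The acute split depended on scaling: on CPM scaled by trimmed mean of M-values (TMM) factors, 4.85% were higher and 8.26% lower. With that scaling 2 members passed at the acute time, Bmpr2 and Smad7 (13.1% of all genes), and 1 at the prolonged time, Id1 (15.3% of all, 6.55% higher and 8.70% lower), each higher in DKO. The same genes passed in edgeR with TMM factors, where 4.90% of acute and 6.20% of prolonged genes were higher, and in the authors' deposited table, where 6.66 and 6.57% were. The median log2 fold change of the 10 genes was 0.015 (acute) and 0.0077 (prolonged), against -0.068 and 0.0015 over all genes tested.

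**Figure D2:**
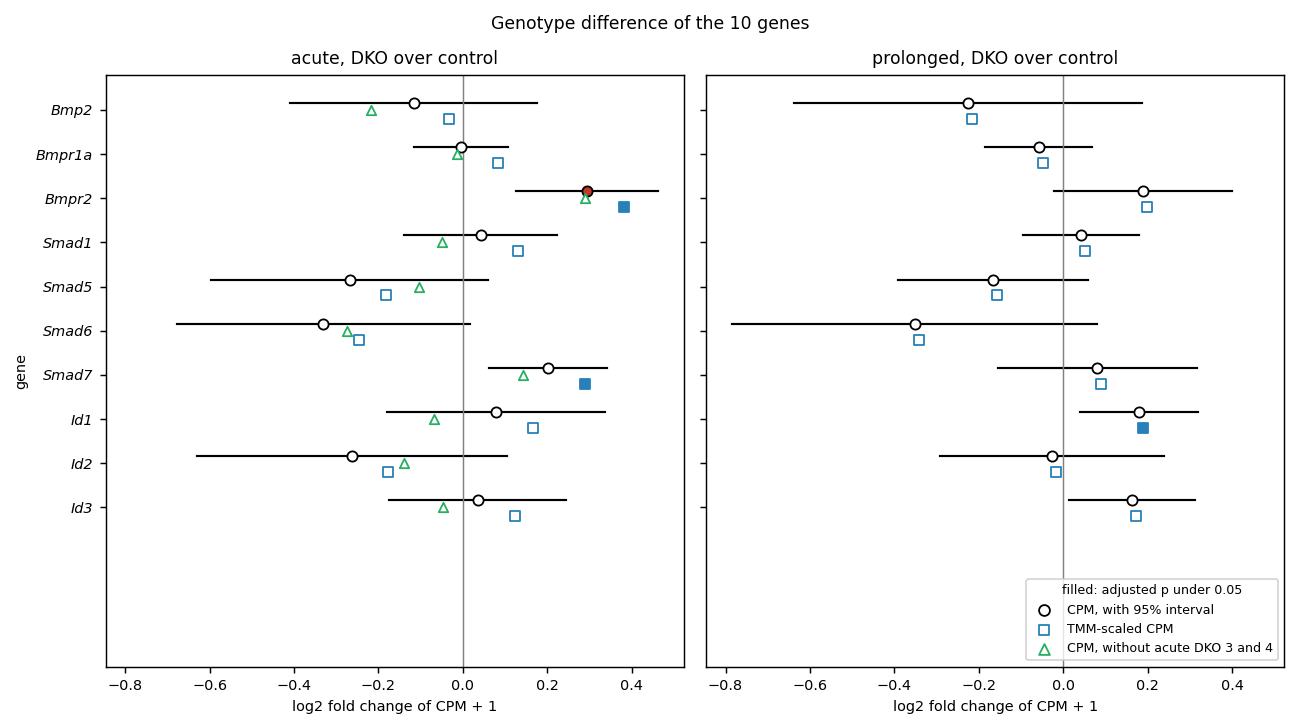
Log2 fold change of CPM + 1, DKO over control (horizontal axis), for each gene at both times: circles with 95% intervals for CPM, squares for TMM-scaled CPM, triangles for CPM without acute DKO libraries 3 and 4; filled marks have an adjusted p under 0.05. Filled circles occur once, for acute Bmpr2 at 0.29, and filled squares for acute Bmpr2 and Smad7 and prolonged Id1.

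Bmp2, a ligand that intestinal epithelium makes itself, was measured at 17.7, 14.0, 19.2, 22.7, 16.7, 21.2 and 12.4 CPM in acute DKO libraries 1 to 7, against 17.4, 21.3, 17.5, 17.6 and 21.3 CPM in acute controls 1 to 5. It was 15.8, 17.6, 9.83, 11.0 and 11.5 CPM in prolonged DKO libraries, against 11.6, 15.9 and 18.9 CPM in prolonged controls. The groups overlapped at both times, and DKO libraries held both the highest and the lowest acute value. The log2 fold changes were -0.12 ± 0.14 (adjusted p = 0.625 by limma, 95% interval -0.41 to 0.18) and -0.23 ± 0.19 (adjusted p = 0.483 by limma, 95% interval -0.64 to 0.19). Both intervals include 0, and the prolonged value was -0.41 without control 1, -0.14 without DKO 3 and -0.078 without control 3.

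Bmpr2, the type II receptor that activates type I receptors, was measured at 53.9, 60.8, 55.9, 58.1, 55.7, 57.5 and 53.7 CPM in acute DKO libraries 1 to 7, against 48.9, 38.3, 52.9, 50.4 and 40.7 CPM in acute controls 1 to 5. Every acute DKO value lay above every control value, a separation in that direction found in 1.24% of the acute genes tested (6.55% lay wholly below). Its mean was 56.5 ± 2.50 CPM in DKO and 46.2 ± 6.36 CPM in control libraries (SD, n = 7 and 5), a ratio of 1.22 and a log2 fold change of 0.29 ± 0.08 (adjusted p = 0.0224 by limma). At the prolonged time it was 59.8, 78.0, 58.7, 61.9 and 59.8 CPM in DKO libraries, against 62.5, 52.1 and 52.0 CPM in controls. Here control 1 exceeded 4 of the 5 DKO values, and the log2 fold change of 0.19 ± 0.10 did not pass (adjusted p = 0.228 by limma, 95% interval -0.021 to 0.40). The acute call was lost under some alternatives. Of 12 fits with a single library left out, with log2 fold changes from 0.23 to 0.34, 1 lost the call. That was the fit without acute control 5, where the adjusted p by limma was 0.0513 (log2 fold change 0.25). Without DKO 3 and 4, where 2.91% of all genes were higher, it was 0.0504 (0.29), and with blocks of adjoining animal numbers it was 0.0887 (0.27). With TMM scaling the log2 fold change was 0.38 and passed with DKO 3 and 4 (adjusted p = 0.00595 by limma) and without them (0.34, adjusted p = 0.0157, with 4.39% of all genes higher). Over all alternatives its adjusted p ran from 0.000127 to 0.110.

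Bmpr1a, the main type I receptor of the intestinal epithelium, averaged 123 ± 4.33 CPM in acute DKO and 123 ± 9.02 CPM in acute control libraries (SD, n = 7 and 5), and lay between 118 and 129 CPM in the DKO and between 109.6 and 133 CPM in the control group. At the prolonged time it was 134, 147, 122, 132 and 137 CPM in DKO libraries, against 140.3, 135 and 144 CPM in controls. The groups overlapped at both times. Its log2 fold changes were -0.0039 ± 0.05 (adjusted p = 0.974 by limma, 95% interval -0.12 to 0.11) and -0.058 ± 0.059 (adjusted p = 0.567 by limma, 95% interval -0.19 to 0.069); the acute one changed sign to 0.084 with TMM scaling. These are the narrowest intervals of the 10 genes at each time.

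The transducers Smad1 and Smad5 encode closely related proteins that the type I receptors phosphorylate. Smad1 was 93.4, 90.6, 107, 119, 82.9, 86.7 and 99.6 CPM in acute DKO libraries 1 to 7, against 103, 86.0, 92.9, 89.8 and 96.9 CPM in acute controls. DKO 3 and 4 held the highest 2 values. Smad5 was 36.7, 44.1, 32.5, 25.0, 49.0, 49.0 and 37.4 CPM in the same DKO libraries, against 44.9, 50.02, 55.4, 45.3 and 37.5 CPM in controls. For Smad5 the same DKO libraries 3 and 4 held the lowest 2 values. Prolonged Smad1 was 86.1, 81.4, 87.1, 97.7 and 92.3 CPM in DKO, against 90.2, 84.7 and 83.7 CPM in control libraries, and prolonged Smad5 was 39.7, 52.4, 42.6, 44.3 and 46.1 CPM in DKO, against 60.3, 46.0 and 46.2 CPM in control libraries. All 4 pairs of groups overlapped. Smad1 had log2 fold changes of 0.042 ± 0.085 at the acute time (adjusted p = 0.795 by limma) and 0.04 ± 0.06 at the prolonged time (adjusted p = 0.715). Smad5 had -0.27 ± 0.15 (adjusted p = 0.269 by limma) and -0.17 ± 0.10 (adjusted p = 0.329). Without acute DKO 3 and 4 the acute values were -0.049 for Smad1 and -0.11 for Smad5, with adjusted p by limma of 0.705 and 0.618. With animal number blocks acute Smad5 was -0.022 (adjusted p = 0.939 by limma), and without prolonged control 1 its prolonged value was -0.040 (adjusted p = 0.818).

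The inhibitory Smad6, which chiefly restrains BMP type I receptors, was 14.9, 18.9, 22.9, 13.4, 23.0, 25.3 and 21.2 CPM in acute DKO libraries 1 to 7, against 21.7, 32.6, 28.3, 22.6 and 20.7 CPM in acute controls. Prolonged Smad6 was 22.6, 24.7, 11.1, 16.5 and 16.7 CPM in DKO, against 25.9, 21.1 and 21.8 CPM in control libraries. In both comparisons the lowest DKO libraries lay well below every control while others lay among them. The log2 fold changes were -0.33 ± 0.16 (adjusted p = 0.196 by limma, 95% interval -0.68 to 0.017) and -0.35 ± 0.20 (adjusted p = 0.279 by limma, 95% interval -0.78 to 0.081), so neither passed. With animal number blocks the acute value was -0.14 (adjusted p = 0.671 by limma), and without prolonged DKO 3 the prolonged one was -0.20 (adjusted p = 0.436).

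Smad7, which restrains TGF-beta as well as BMP receptors, was 56.8, 62.7, 72.9, 66.0, 56.2, 62.9 and 61.1 CPM in acute DKO libraries 1 to 7, against 52.1, 55.6, 55.1, 51.3 and 56.8 CPM in acute controls. Of the 7 DKO values, 6 lay above every control, that of DKO 1 only just, and DKO 5 lay under the highest control. Its mean was 62.7 ± 5.70 CPM in DKO and 54.2 ± 2.35 CPM in control libraries (SD, n = 7 and 5), a log2 fold change of 0.20 ± 0.07 that missed the threshold (adjusted p = 0.0518 by limma). It passed with TMM scaling (0.29, adjusted p = 0.0295), in edgeR's quasi-likelihood test (0.30, adjusted p = 0.0291) and in the authors' deposited table (0.31, adjusted p = 0.00927), and by limma without DKO 1 (adjusted p = 0.0449) or DKO 5 (0.0320). Without DKO 3 and 4, which held the highest values, it was 0.14 (adjusted p = 0.133 by limma), or 0.20 with TMM scaling (adjusted p = 0.0411). Over all alternatives its adjusted p ran from 0.00927 to 0.167. Prolonged Smad7 was 56.2, 50.8, 50.9, 69.9 and 57.3 CPM in DKO, against 51.7, 62.1 and 47.7 CPM in control libraries, with the groups overlapping (log2 fold change 0.08 ± 0.11, adjusted p = 0.680 by limma).

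Id1, the Id gene most often used as a readout of BMP signalling, was 64.0, 69.8, 102, 99.3, 65.1, 74.6 and 80.8 CPM in acute DKO libraries 1 to 7, against 77.8, 70.6, 70.2, 67.3 and 85.6 CPM in acute controls. DKO 3 and 4 exceeded every other acute library, and the other 5 DKO values lay below or among the controls. Both libraries were also low in Paneth cell markers, with 1417 CPM in DKO 3 and 686 CPM in DKO 4 against 2618 to 3691 CPM in the other DKO libraries, and in crypt stem cell markers, with 883 and 661 CPM against 1095 to 1630 CPM. Immune markers were highest in DKO 3 (933 CPM) and lowest in DKO 4 (304 CPM) of all acute DKO libraries. The part of these markers in the Id values was not tested. The log2 fold change was 0.08 ± 0.12 (adjusted p = 0.723 by limma), and it was -0.067 without DKO 3 and 4 (adjusted p = 0.670). Prolonged Id1 was 69.0, 75.5, 79.5, 76.2 and 68.0 CPM in DKO, against 68.1, 61.9 and 64.6 CPM in control libraries. Of the DKO libraries, 4 lay above every control and DKO 5 lay just under control 1. The log2 fold change of 0.18 ± 0.06 missed the threshold (adjusted p = 0.0870 by limma, 95% interval 0.039 to 0.32); it passed with TMM scaling (0.19, adjusted p = 0.0444), in edgeR (0.19, adjusted p = 0.0461) and in the authors' deposited table (0.19, adjusted p = 0.0442). Over all alternatives its adjusted p ran from 0.0442 to 0.260.

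Id3, whose protein acts much like ID1, was 70.1, 71.3, 93.2, 98.5, 90.1, 88.5 and 74.2 CPM in acute DKO libraries 1 to 7, against 78.9, 87.4, 82.8, 68.6 and 89.1 CPM in acute controls. DKO 3 and 4 were again the highest, and the groups overlapped (log2 fold change 0.035 ± 0.097, adjusted p = 0.857 by limma). Prolonged Id3 was 78.7, 85.7, 78.7, 85.9 and 76.7 CPM in DKO, against 78.7, 65.2 and 73.4 CPM in control libraries. The log2 fold change was 0.16 ± 0.07 and did not pass (adjusted p = 0.138 by limma, 95% interval 0.015 to 0.31). Id1 and Id3 thus had prolonged differences of like size in the same direction.

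Id2, the family member best known in lymphoid development, was 24.9, 24.1, 28.4, 12.3, 23.8, 25.7 and 30.5 CPM in acute DKO libraries 1 to 7, against 30.6, 30.8, 29.0, 27.8 and 24.4 CPM in acute controls. DKO 4 was far under all other libraries, and the log2 fold change of -0.26 ± 0.17 (adjusted p = 0.343 by limma) was -0.14 without DKO 3 and 4 (adjusted p = 0.360). Prolonged Id2 was 24.3, 28.9, 33.6, 26.0 and 24.9 CPM in DKO, against 32.5, 23.2 and 28.7 CPM in control libraries, a full overlap (-0.03 ± 0.12, adjusted p = 0.915 by limma). Unlike Id1 and Id3, Id2 was not highest in DKO 3 and 4: DKO 3, at 28.4 CPM, lay among the controls, and DKO 4 was the lowest.

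Across the 20 libraries, with each gene centred within its time, some of the 10 genes varied together and others against each other. Pearson's r was 0.74 for Id1 with Smad1, 0.66 for Id1 with Id3, 0.68 for Smad5 with Smad6 and 0.64 for Id2 with Smad5, and it was -0.70 for Smad1 with Smad5 and -0.64 for Id1 with Smad5. These are descriptions over libraries that differ in genotype and depth, which centring within each time does not take out. Acute DKO 3 and 4 carried much of them: over the other 18 libraries r was 0.48, 0.49, 0.66 and 0.33 for the positive pairs, and -0.35 and -0.26 for the negative pairs, in the same order. Smad5 with Smad6 was the pair of these that hardly moved. Id2 changed sides, from r of -0.24 with Id1 and -0.44 with Smad1 over 20 libraries to 0.37 and 0.17 over 18. Bmp2, Bmpr1a and Bmpr2 followed neither Id1 nor Smad5 closely, with r between -0.13 and 0.20 over 20 libraries and between -0.23 and 0.21 over 18. With each gene centred within its group instead, these r lay between -0.29 (Smad5 with Bmp2) and 0.38 (Smad5 with Bmpr2). Bmpr1a and Bmpr2 had r of 0.38 with each other when centred within each time, and 0.68 when centred within each group.

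**Figure D3:**
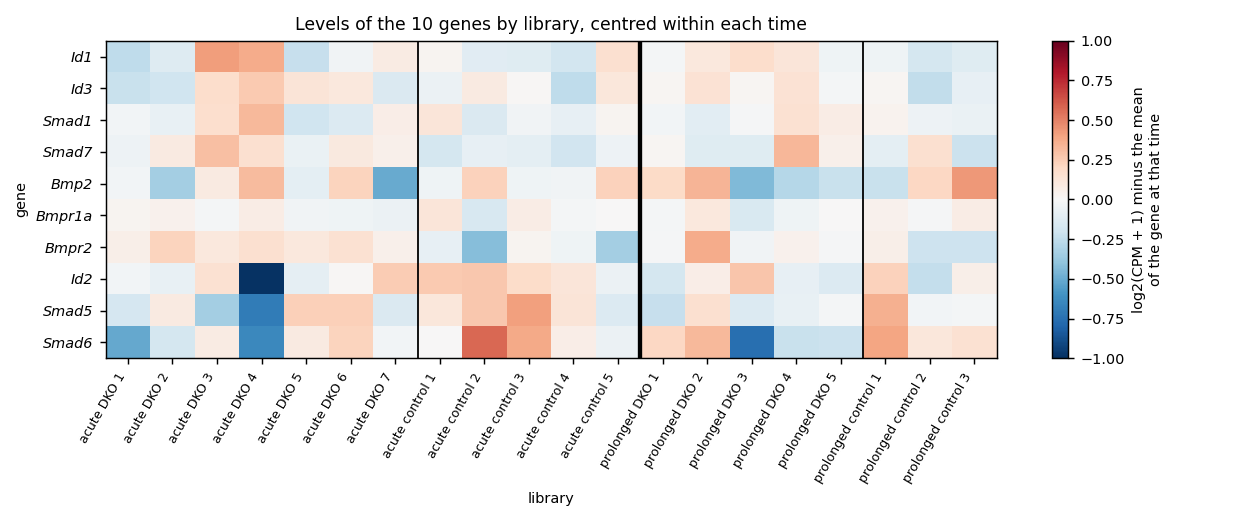
Log2(CPM + 1) of each gene (rows) in each library (columns), minus the gene's mean at that time, as colour; thin lines part DKO from control and the thick line parts the times. Acute DKO 4 is red for Id1, Id3 and Smad1 and blue for Id2, Smad5 and Smad6.

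By the same measure, the genes most like each member were sought among 10340 genes that averaged at least 5 CPM. Id1 was nearest to Trabd (r = 0.85), Psmb10 (0.84) and Slfn2 (0.82), which over the 18 libraries without acute DKO 3 and 4 had r of 0.77, 0.76 and 0.57. Id3 was nearest to Elob (0.85), Creb3 (0.81) and Tmco4 (0.77), and Id2 to Eif3h (0.90), Lfng (0.90) and Amica1 (0.89). Over the 18 libraries these r were 0.79, 0.73 and 0.72 for Id3, and 0.83, 0.74 and 0.67 for Id2. Bmp2 was nearest to Tmem170 (0.79), Dgka (0.79) and Copb2 (0.76), with 0.78, 0.84 and 0.74 over the 18 libraries. The 3 Id genes shared none of these nearest genes. With only the top 3 of 10340 genes taken for each, sharing none says little on whether they vary together. Each r named here is among the highest of that many.

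The genotype difference did not change detectably between times for any of the 10 genes. In 1 limma fit over all 20 libraries, the prolonged minus acute change ran from -0.12 ± 0.13 for Smad7 to 0.24 ± 0.25 for Id2, with adjusted p between 0.875 and 0.999. Over all 13088 genes tested at both times 0 passed in that fit (0% of genes), with 608 at an unadjusted p under 0.05; edgeR with TMM factors also called 0, with 494 unadjusted. Of the 10 members, 0 had an unadjusted p under 0.05 by either tool.

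The rest of the pathway and its neighbours were read from 9 lists by role, 70 genes. These include 13 genes of the TGF-beta and activin arm and 3 E proteins. Of the 70, 42 could be tested in the acute table and 39 in the prolonged one. At the acute time 0 rose and 10 fell (2.90% of all tested genes rose and 12.1% fell). At the prolonged time 0 rose and 5 fell (5.74 and 8.94% of all). The TGF-beta and activin arm held 2 of the acute falls and 1 of the prolonged ones, and the E proteins 1 at each time. The median log2 fold changes of the listed genes were -0.06 and -0.08, against -0.068 and 0.0015 over all tested genes. Genes of the crypt moved beside them: 6 of 6 markers of cycling cells fell in acute DKO libraries and 5 of 6 in prolonged ones, and so did 4 of 5 Paneth cell markers at each time, which summed to between 686 and 3691 CPM in acute DKO and between 4185 and 8598 CPM in acute control libraries. Of 6 crypt stem cell markers, 2 fell in acute and 1 in prolonged DKO libraries, and their sum lay between 661 and 1630 CPM in acute DKO and between 1775 and 2350 CPM in acute control libraries. Of 7 villus enterocyte markers, 0 passed at the acute time and 1 rose at the prolonged time. Their sum lay between 13319 and 22453 CPM in acute DKO and between 9939 and 18976 CPM in acute control libraries. Of 4 goblet cell markers, 0 passed at the acute time and 1 fell at the prolonged time. Of 3 enteroendocrine markers, 0 passed at the acute time and 1 rose at the prolonged time. The part of such marker shifts in the pathway genes was not tested.

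**Figure D4:**
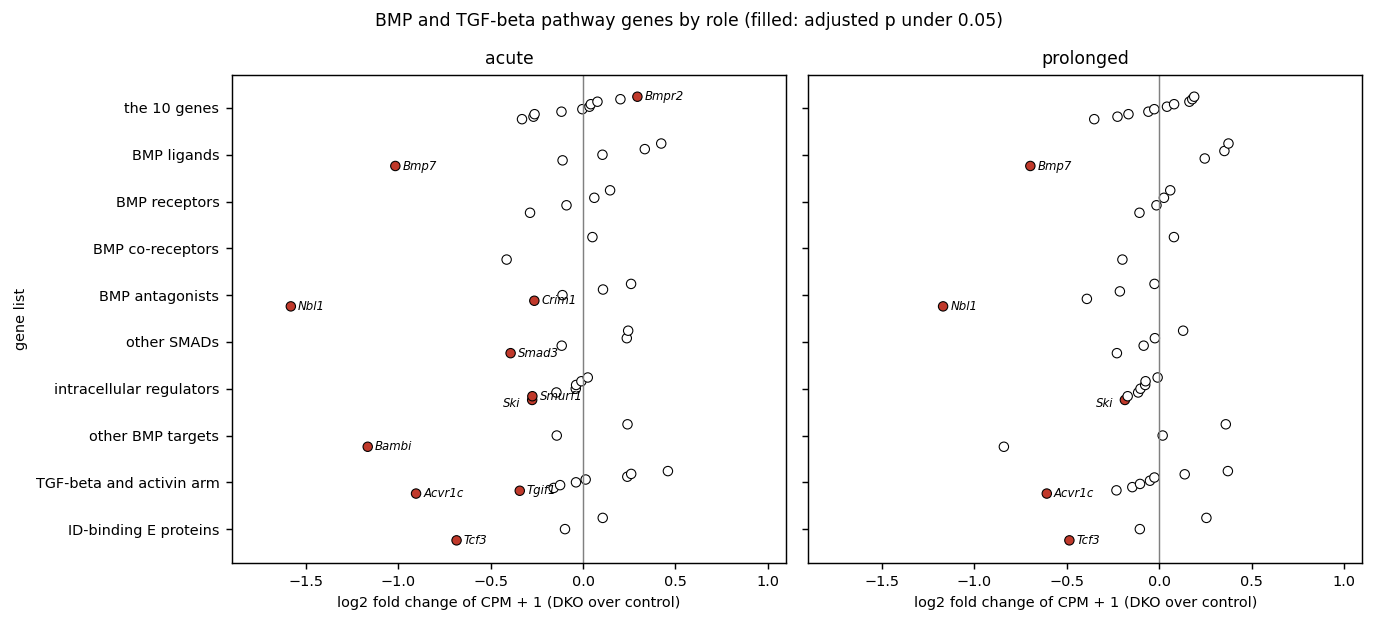
Log2 fold change of CPM + 1, DKO over control (horizontal axis), of every tested gene by role (rows) at the acute (left) and prolonged (right) time; filled points have an adjusted p under 0.05 and are named. Filled points lie left of 0 at both times apart from acute Bmpr2, with Nbl1 farthest left at -1.58 and -1.17.

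Among ligands, Bmp7 fell at both times. It lay between 2.38 and 6.88 CPM in acute DKO (median 4.14) and between 8.65 and 11.0 CPM in acute control libraries, and was 7.48, 4.95, 4.95, 4.95 and 5.23 CPM in prolonged DKO, against 8.89, 9.92 and 9.58 CPM in prolonged control libraries. The groups were apart at both times, with DKO wholly below, as in 6.55% of all acute and 11.7% of all prolonged genes tested. The log2 fold changes of Bmp7 were -1.02 ± 0.18 and -0.70 ± 0.13 (adjusted p = 0.00244 and 0.00502 by limma). Bmp3, an atypical ligand that opposes other BMPs, averaged 52.6 ± 13.1 CPM in acute DKO and 56.4 ± 11.5 CPM in acute control libraries (SD, n = 7 and 5), and 66.0 ± 11.6 CPM in prolonged DKO and 50.2 ± 5.62 CPM in prolonged control libraries (SD, n = 5 and 3). Neither difference passed (-0.11, adjusted p = 0.718, and 0.38, adjusted p = 0.0898, by limma), while the authors' deposited table has prolonged Bmp3 past the threshold (0.40, adjusted p = 0.0357). Bmp4, a mesenchymal ligand, was below the filter on low values, with between 0.239 and 0.680 CPM in the 5 prolonged DKO libraries and a value listed at 0 in the 3 prolonged controls, and at most 0.186 CPM in any acute library. Tgfb2, a TGF-beta ligand also below the filter at the prolonged time, lay between 0.371 and 1.08 CPM in prolonged DKO and between 0.101 and 0.172 CPM in prolonged control libraries, and was past the threshold in the authors' deposited table (2.12, adjusted p = 0.0427).

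Among secreted antagonists, Nbl1, which encodes the DAN protein, fell most of the pathway genes that could be tested. It lay between 0.790 and 3.001 CPM in acute DKO (median 1.69) and between 5.36 and 10.1 CPM in acute control libraries, and was 1.19, 0.680, 1.93, 0.728 and 0.541 CPM in prolonged DKO, against 3.49, 3.84 and 2.92 CPM in prolonged control libraries. The groups did not overlap at either time (DKO lay wholly below in 6.55% of all acute and 11.7% of all prolonged genes tested). Its log2 fold changes were -1.58 ± 0.19 and -1.17 ± 0.20 (adjusted p = 0.00019 and 0.00254 by limma), on a scale that understates changes of low genes. Bambi, a pseudoreceptor that is itself a BMP target, was between 0.699 and 6.06 CPM in acute DKO and between 3.53 and 12.5 CPM in acute control libraries and fell (-1.17 ± 0.34, adjusted p = 0.0341 by limma). At the prolonged time it was between 2.78 and 9.98 CPM in DKO and between 10.3 and 11.8 CPM in control libraries, without overlap (DKO lay wholly below in 11.7% of all genes tested), and missed the threshold (-0.84 ± 0.26, adjusted p = 0.0533 by limma).

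Of the E proteins that ID proteins bind, Tcf3, which encodes E12 and E47, fell at both times, and Tcf4 and Tcf12 did not pass. Tcf3 lay between 65.9 and 102 CPM in acute DKO (median 97.3) and between 118 and 149 CPM in acute control libraries. It was 81.8, 78.6, 76.8, 69.2 and 74.4 CPM in prolonged DKO, against 117, 96.2 and 108 CPM in prolonged control libraries. The groups were apart at both times (DKO lay wholly below in 6.55% of all acute and 11.7% of all prolonged genes tested). The log2 fold changes of Tcf3 were -0.68 ± 0.12 and -0.49 ± 0.07 (adjusted p = 0.00209 and 0.00103 by limma). Bmp7, Nbl1 and Tcf3 passed at both times whichever single library was left out, and at the acute time also without DKO 3 and 4.

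Among the other SMADs, Smad3, a transducer of TGF-beta and activin, fell at the acute time, lying between 28.4 and 42.3 CPM in DKO and between 45.3 and 50.7 CPM in control libraries (-0.39 ± 0.10, adjusted p = 0.0182 by limma), and did not pass at the prolonged time (-0.23 ± 0.08, adjusted p = 0.0962). Smad4, the shared partner, lay between 177 and 373 CPM in acute DKO and between 189 and 241 CPM in acute control libraries, and between 228 and 250 CPM in prolonged DKO and between 214 and 227 CPM in prolonged control libraries. The prolonged groups did not overlap (DKO lay wholly above in 8.82% of all genes tested), yet neither time passed (0.24 ± 0.16, adjusted p = 0.329, and 0.13 ± 0.05, adjusted p = 0.106, by limma). Smad2 (acute -0.12, prolonged -0.02) and Smad9 (0.24 and -0.08) did not pass at either time. Nor did the BMP receptor genes Acvr1 (-0.09 and -0.01), Acvrl1 (0.15 and 0.06), Acvr2a (0.06 and 0.03) and Acvr2b (-0.29 and -0.11). The lowest adjusted p by limma of these genes was 0.133, for acute Acvr2b. Acvr1c, a type I receptor of the activin arm, fell at both times (-0.90 ± 0.28, adjusted p = 0.0463, and -0.61 ± 0.16, adjusted p = 0.0226, by limma), as did Ski, a repressor of SMAD transcription (-0.28 ± 0.08, adjusted p = 0.0323, and -0.19 ± 0.05, adjusted p = 0.0344). Tgif1, a SMAD corepressor, fell at the acute time (-0.34 ± 0.08, adjusted p = 0.0138 by limma), as did the ubiquitin ligase gene Smurf1 (-0.27 ± 0.08, adjusted p = 0.0305) and the antagonist Crim1 (-0.26 ± 0.08, adjusted p = 0.0352). The calls of Smurf1 and Crim1 ended with TMM scaling (-0.19, adjusted p = 0.0805, and -0.18, adjusted p = 0.122, by limma), in both edgeR fits and in the authors' deposited table (adjusted p = 0.0817 and 0.174).

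Several of these calls depended on single libraries. Leaving out any one of acute DKO 1, DKO 3, control 2, control 3 or control 4 ended the calls of Bambi, Acvr1c, Ski, Smurf1 and Crim1. So did leaving out control 1 for Acvr1c and Smurf1, control 5 for Bambi, and DKO 2, 4 or 7 for Crim1, and the adjusted p by limma in all these cases lay between 0.0534 and 0.133. The fold changes themselves stayed near their full size, between -1.18 and -1.04 for Bambi, -0.97 and -0.78 for Acvr1c, -0.27 and -0.25 for Ski, -0.28 and -0.24 for Smurf1 and -0.27 and -0.23 for Crim1. The same 5 genes did not pass without DKO 3 and 4 together (adjusted p between 0.0520 and 0.0949 by limma), which left 5 acute calls, with 9.64% of all genes lower. At the prolonged time Acvr1c did not pass without control 1 (adjusted p = 0.0700) or control 3 (0.122), and Ski did not without DKO 3, 4 or 5 or control 1 or 3 (between 0.0639 and 0.107). The prolonged count of pathway calls was 3 without control 3 and 8 without DKO 2.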

How the data were processed

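Poly(A) RNA of jejunal epithelial cells from female mice was sequenced in 20 libraries made with a NEBNext Ultra kit, per the labels' protocols; strand use is not stated. STAR, featureCounts 1.6.2 and DESeq2 are named for the mm9 build, without settings, per the submitters' processing notes, which also list SAMtools 1.9, bedtools 2.27.1 and FastQC 0.11.5. The authors deposited 1 table per time, with CPM per library and their own comparison as log2 fold changes and p-values. Whole reads were recovered from the steps of the CPM values within a tolerance of 0.01, less surely for prolonged control 3, whose step is near a power of 10, and gave the depths and the counts used by edgeR and DESeq2. All 20 libraries differed by more than sampling noise and were counted separately.

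Genes with at least 0.5 CPM in 5 acute or 3 prolonged libraries were tested with limma 3.58.1 (R 4.3.3, trend and moderated variance) on log2(CPM + 1), DKO against control within each time, with Benjamini-Hochberg adjustment over all genes. The difference between times came from 1 fit over both tables, which the authors had scaled separately. Alternatives were a pseudocount of 0.5, no filter, TMM-scaled CPM, edgeR 4.0.16 with TMM or relative log expression factors, DESeq2 1.42.0, the replicate number as a block, blocks of adjoining animal numbers, each library left out, and acute DKO 3 and 4 left out. The last of these on TMM-scaled CPM was chosen after seeing the data. The fits were also run on simulated data, with larger changes than those of the 10 genes and without libraries that stand apart. That run therefore does not bear on the calls of these genes. The 10 genes, the lists by role and the markers were chosen with earlier results of these data known. Pathway genes outside the 10 were named where they passed the test at either time. The genes with values in the lists of BMP receptors and other SMADs were named whether they passed or not. Bmp3, Bmp4 and Tgfb2 were chosen after their values were seen. Promoter sequence is from RefSeq on GRCm38.p6, another build than that of the reads, and was used for its letters only.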

Additional observations from a re-analysis of the deposited data

Results flagged for a closer look

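Of 30 sets of values tested, each a gene in a group of 4 or more libraries, 2 held a library far from the others of its group; chance alone marks about 1 group in 20. Id2 was 12.3 CPM in acute DKO 4, against 23.8 to 30.5 CPM in the other 6 acute DKO libraries. Bmpr2 was 78.0 CPM in prolonged DKO 2, against 58.7 to 61.9 CPM in the other 4 prolonged DKO libraries, and without that library the prolonged log2 fold change of Bmpr2 was 0.11 (adjusted p = 0.354 by limma).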

How the results depend on the processing

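Of 725 log2 fold changes, or changes of them between times, recomputed under an alternative, 601 kept their direction and their side of the threshold. Of the others, 78 lost their call, 11 gained a call and 35 changed sign. Counts of passing genes are not among these values and are given next. At the acute time 1 of the 10 genes passed. The count was 2 with limma on TMM-scaled CPM, edgeR with either set of factors, DESeq2, and TMM-scaled CPM without DKO 3 and 4. It was 0 with the replicate block, with animal number blocks and without DKO 3 and 4, and 0 to 2 with single libraries left out. At the prolonged time 0 passed, and 1 passed with TMM-scaled CPM, both edgeR fits and DESeq2. Of the wider pathway 10 genes passed at the acute time, against 4 with the replicate block, 3 with animal number blocks, 5 without DKO 3 and 4 and 6 without them on TMM-scaled CPM, and 5 to 11 with single libraries left out. The 5 prolonged calls became 3 with the replicate block and 3 to 8 with single libraries left out. Over all genes, 2035 acute calls became 947 and 1955 prolonged calls became 528 with the replicate block; leaving out single libraries gave 1237 to 2185 and 1052 to 1724, the lowest without control 3 of that time. Same-numbered samples did not deviate together (r from -0.20 to 0.20 over the acute numbers and from -0.24 to -0.16 over the prolonged ones), so the number is not taken as a pairing. With the replicate block the adjusted p by limma was 0.110 for acute Bmpr2, 0.108 for prolonged Bmp7 and 0.0715 for prolonged Nbl1.

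These log2 fold changes, none past the threshold, changed sign, and the cause was not tested. Without DKO 3 and 4, acute Id1 was -0.067, Id3 -0.047 and Smad1 -0.049, and Id1 was -0.014 on TMM-scaled CPM; with animal number blocks Id1 was -0.089 and Smad1 -0.11. Acute Bmpr1a was 0.084 on TMM-scaled CPM, 0.086 and 0.097 in edgeR with TMM and relative log expression factors, 0.096 in DESeq2, 0.016 with the replicate block and 0.039 without DKO 3 and 4 on TMM-scaled CPM. Acute Bmp2 was 0.0028 in edgeR with relative log expression factors and 0.0024 in DESeq2. With the replicate block prolonged Id2 was 0.040, Smad1 -0.022 and Smad7 -0.025. The change between times was -0.0015 for Id1 in edgeR, -0.083, -0.095 and -0.085 for Smad1 on TMM-scaled CPM, in edgeR and with the replicate block, -0.061 for Smad5 without DKO 3 and 4, and 0.13 for Smad6 with the replicate block. With single libraries left out, acute Id3 ran from -0.024 to 0.075, Smad1 from -0.0092 to 0.078 and Bmpr1a from -0.045 to 0.025, and prolonged Id2 from -0.16 to 0.080 and Smad7 from -0.00033 to 0.19. The prolonged comparison has only 3 controls, and its median standard error over all genes tested was 0.093, against 0.110 at the acute time. Genes near 1 CPM such as Nbl1 rest on few reads.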
